A study of Mus musculus with 16 samples.

Results

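Wnt ligands, their Frizzled receptors and the secreted proteins that act on them are described here in cultured mouse myoblasts. Members were all gene names on the array that consist of Wnt, Fzd, Sfrp, Dkk or Rspo and a number, with a letter after it for some ligands, which gave 41 of 34836 gene names. They are 19 Wnt ligands, 10 Frizzled receptors, 4 secreted Frizzled-related proteins, 4 Dickkopf proteins and 4 R-spondins, and 48 probes read them. In the study, myoblasts kept on the explanted fibers they came from (myofiber-associated, stripped with trypsin before lysis) were set beside myoblasts plated away from the fiber (dispersed), 48 and 72 hr after isolation. RNA of 4 replicates per culture and time was hybridized to one-color Agilent arrays, 16 in all. The mice were untreated C57Bl/6J males, 11 to 13 weeks old by the labels, with 2 mice to a myofiber-associated replicate and 1 to a dispersed replicate, and replicate 4 of the myofiber-associated 48-hr group pooled 2 preparations. Each culture had a slide of 8 arrays to itself, so a difference of culture and a difference of slide cannot be told apart.

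Wnt proteins are secreted, lipid-modified signals that bind Frizzled receptors, often together with the co-receptors Lrp5 and Lrp6, and the signal either stabilizes beta-catenin, which then acts with TCF/LEF factors on target genes, or runs through routes without beta-catenin such as planar cell polarity. Secreted Frizzled-related proteins bind Wnts outside the cell, most Dickkopf proteins block the Lrp co-receptors, and R-spondins keep Frizzled receptors at the surface through the Lgr receptors. In muscle, Wnt signals act on satellite cells, the stem cells that lie between the fiber and its sheath and give rise to myoblasts, and several ligands are known from regeneration.

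An array carried 59305 gene spots, none of them saturated, for 55681 probes placed on the mouse genome build mm9. The share of spots that the scanner software called well above background ran from 55.2% to 60% (dispersed, 48 hr), 57.5% to 60.6% (dispersed, 72 hr), 57.9% to 62.4% (myofiber-associated, 48 hr) and 58.1% to 64.3% (myofiber-associated, 72 hr). Levels below are normalized signals on the log2 scale, and differences are log2 differences. Over 4 arrays the members' median SD was 0.17 (dispersed, 48 hr), 0.18 (dispersed, 72 hr), 0.33 (myofiber-associated, 48 hr) and 0.35 (myofiber-associated, 72 hr), against 0.09, 0.10, 0.22 and 0.18 over all genes tested, and the number of arrays limits the precision. A gene was tested if its median signal was at least 5, which kept 20317 genes and 26 of the 41 members. Of the 15 members not tested, 13 were not well above background on all 4 arrays of any group. Groups were compared with limma, two-sided, and "past the threshold" means an adjusted p under 0.01 over all genes. The comparative ratio (CR) is the 72-hr change in dispersed myoblasts minus the 72-hr change in myofiber-associated myoblasts, so a negative CR is a change that was higher on the fiber. Where 2 groups of 4 arrays do not overlap, an exact permutation test, two-sided, gives p = 0.0286, the smallest it can give for groups of this size.

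Markers of the labelled cells and of other cells came first. Myoblast markers were well above background on every array: Pax7 had mean levels of 11.07 and 11.26 in dispersed and 10.21 and 11.89 in myofiber-associated myoblasts at 48 and 72 hr, and Myod1 had 14.41, 14.85, 14.69 and 15.32. The labels state that preparations of myofiber-associated myoblasts were free of fiber RNA. All 12 adult myofiber markers were nevertheless higher on the myofiber-associated arrays at 48 hr (median difference 5.90, against −0.12 over all genes) and 11 of 12 at 72 hr (median 5.52, against −0.02). Their summed signal, with Tnni2 the brightest and none of the 12 at background throughout, was 2590000, 2310000, 2600000 and 2040000 on the myofiber-associated 48-hr arrays and 654000, 1610000, 456000 and 1950000 at 72 hr. In dispersed myoblasts it was 67700, 45700, 32000 and 26500 at 48 hr and 19500, 19500, 16800 and 16900 at 72 hr. Endothelial markers went the other way, with 13 of 14 lower on the myofiber-associated arrays at 48 hr (median −2.60) and 12 of 14 at 72 hr (median −3.06). Their summed signal, with Egfl7 the brightest and none at background throughout, ranged over the dispersed arrays from 153000 to 207000 at 48 hr and from 55400 to 79600 at 72 hr, and over the fiber's arrays from 24500 to 52400 and from 14400 to 18000. In bulk RNA, fewer cells of a type and less RNA per cell cannot be told apart. The part of these marker levels in the results on Wnt genes was not tested.

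Some Wnt genes passed the threshold over time in each culture, and most did not. In dispersed myoblasts 4 of the 26 tested members rose between 48 and 72 hr and 3 fell, where 7.38% of all genes tested rose and 6.32% fell. In myofiber-associated myoblasts 5 rose and 1 fell, beside 3.74% and 1.74% of all genes. The CR was past the threshold for 5 members, 3 of them positive and 2 negative, beside 1.09% and 2.36% of all genes. As a share of the members tested these are 26.9%, 23.1% and 19.2%, and the same shares of all genes were 13.7%, 5.48% and 3.45%. Between the cultures, 3 members were higher and 8 lower on the myofiber-associated arrays at 48 hr, where 16.1% and 27% of all genes were, so that 42.3% of the members stood beside 43.2% of all genes. At 72 hr 3 were higher and 7 lower, beside 11.5% and 15.6% of all genes. The members' median absolute difference over time was 0.29 off the fiber and 0.93 on it (0.14 and 0.28 over all genes), 0.71 for the CR (0.27), and 0.53 and 0.62 between the cultures at 48 and 72 hr (0.40 and 0.28). In at least 1 of the 5 comparisons 17 of the 26 tested members were past the threshold (65.4%), beside 56.3% of all genes tested. Of the 17, 7 were ligands, 6 receptors, 2 secreted Frizzled-related proteins, 1 a Dickkopf and 1 an R-spondin. These counts depended on single arrays and on settings: without 1 array the 7 of dispersed myoblasts became 4 to 7, the 6 on the fiber 2 to 9, the 5 of the CR 4 to 10, the 11 at 48 hr 10 to 14 and the 10 at 72 hr 4 to 10. One fit of 16 arrays gave 3 in dispersed myoblasts and 15 on the fiber, and normexp gave 3 for the CR. In that one fit 394 of all 20317 genes rose and 605 fell in dispersed myoblasts (1499 and 1285 in the main fit). On the fiber 3387 rose and 2393 fell (759 and 354 in the main fit). With normexp the CR was positive for 206 and negative for 486 of 34836 genes (221 and 480 of 20317 in the main fit). The arrays that moved the members' counts are named in the closing part. Shares of all genes without 1 array are not given, so those ranges describe the members' counts alone. The comparisons share arrays, so their counts are not independent of each other.

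**Figure D1:**
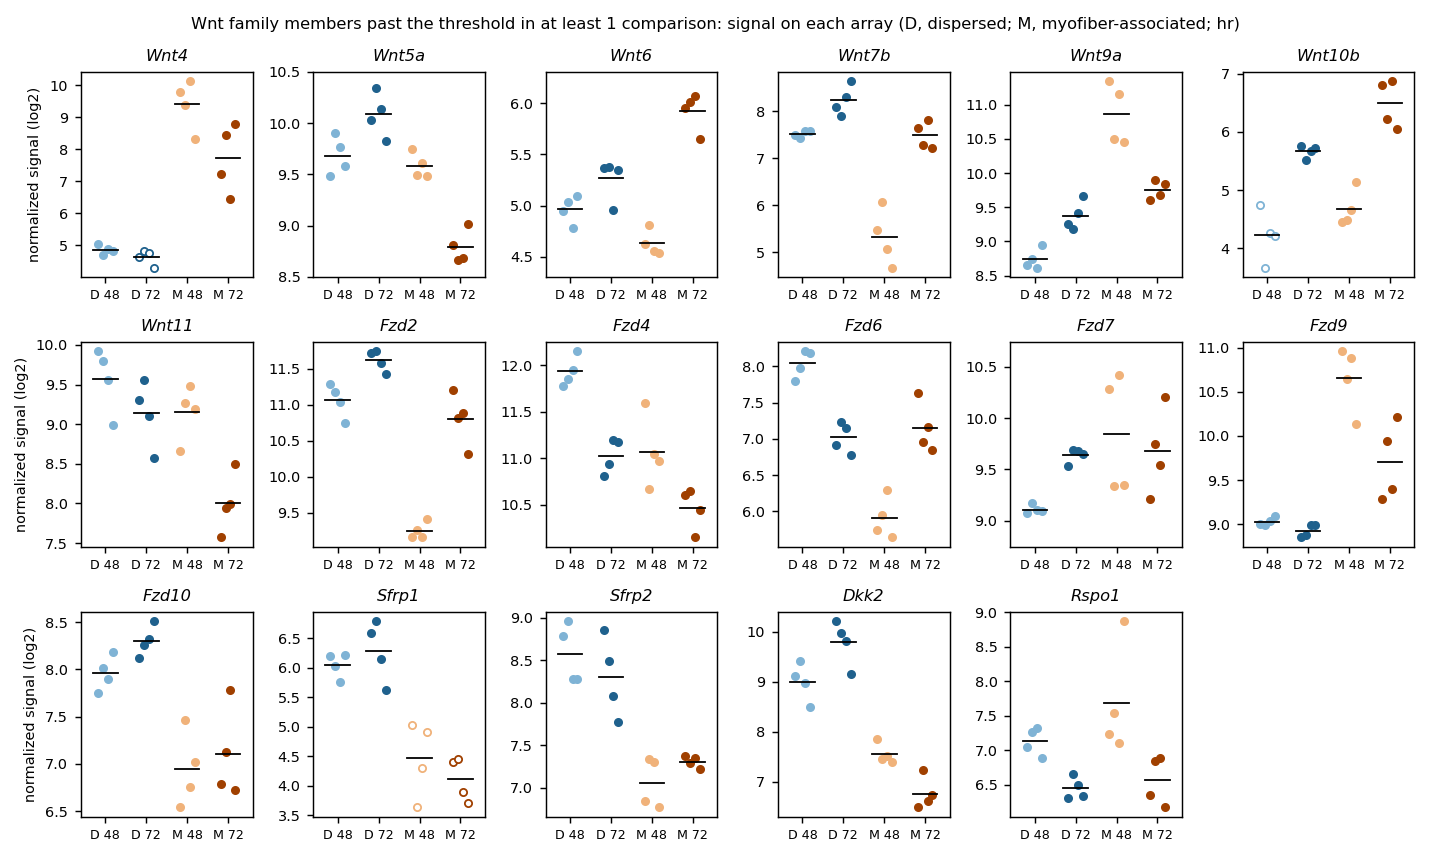
Normalized log2 signal of the 17 members past the threshold in at least 1 comparison, 1 point per array (D, dispersed; M, myofiber-associated; 48 and 72 hr). Black lines are means of 4 arrays, and open symbols mark groups in which fewer than 4 arrays were well above background. Wnt4 lay at 4.31 to 5.03 on the dispersed arrays and at 6.46 to 10.12 on the myofiber-associated arrays.

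Wnt4, a ligand known from the development of the kidney and the reproductive tract, differed most between the cultures at 48 hr among the members tested. At 72 hr its rank depended on the setting: Dkk2 had −3.03 there, and −3.24 to −2.45 over the alternatives, while normexp gave 1.60 for Wnt4. Its probe (chr4:136855342-136855401 of mm9, + strand) gave 5.03, 4.71, 4.89 and 4.83 on the dispersed 48-hr arrays and 4.64, 4.82, 4.75 and 4.31 on the dispersed 72-hr arrays, 1 of which was not well above background. The myofiber-associated arrays gave 9.80, 9.39, 10.12 and 8.31 at 48 hr and 7.22, 8.43, 6.46 and 8.80 at 72 hr. Every myofiber-associated array lay above every dispersed array, and at 72 hr replicates 1 and 3 were low and replicates 2 and 4 high. The difference was 4.54 at 48 hr (SE 0.34, 23.3-fold, adjusted p = 2.36e-05) and measured as 3.10 at 72 hr (SE 0.48, adjusted p = 0.00149), in 4 of 4 arrays each, with no fold given at 72 hr because of the dispersed array near background. The change with time was −1.68 in myofiber-associated myoblasts (adjusted p = 0.0644) and −0.24 in dispersed myoblasts (adjusted p = 0.186), and the CR was 1.44 (adjusted p = 0.121), none past the threshold, though one fit of all 16 arrays gave the change on the fiber an adjusted p of 0.00762. Normexp background correction made the culture differences of Wnt4 smaller, 2.96 at 48 hr (adjusted p = 0.000112) and 1.60 at 72 hr (adjusted p = 0.00974). A separate probe for Wnt4, of 60 bases, maps across 569 bases of the genome (chr4:136851690-136852258, + strand) and so joins exons, which genomic DNA does not. It was well above background on all 8 myofiber-associated arrays and on none of the 8 dispersed arrays, so no size is given for its difference. That probe is shown as the measure of spliced Wnt4 RNA, all in lower case since no part of it was singled out.
Wnt4 probe: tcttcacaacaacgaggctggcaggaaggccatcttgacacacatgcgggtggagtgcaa

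Within a time, the arrays of the fiber had the same order for Wnt4 as for some marker sums and not for others. At 72 hr Wnt4 and the adult myofiber sum were lowest on replicate 3 (Wnt4 6.46, marker sum 456000), then on replicates 1 (7.22, 654000) and 2 (8.43, 1610000), and highest on replicate 4 (8.80, 1950000). At 48 hr the pooled replicate 4 had the lowest value of both (8.31, 2040000). Tenocyte sums had the Wnt4 order at both times (54800, 44500, 73400 and 33600 at 48 hr, 23400, 38500, 19800 and 49800 at 72 hr), and muscle differentiation sums at 72 hr (197000, 416000, 149000 and 564000). The brightest tenocyte gene was Scx, with a mean of 15.43 on the fiber at 48 hr, so the sum mostly follows that gene. Of the 4 tenocyte genes tested at 48 hr, 3 were higher on the fiber and 1, Mkx, lower (6.44 against 7.24). Tnmd was above background on no array. Across the times the order of Wnt4 and the adult myofiber sum was not kept: replicate 4 had 8.80 at a sum of 1950000 at 72 hr and 8.31 at 2040000 at 48 hr. Leukocyte sums had the Wnt4 order at 48 hr only. Endothelial (34500, 37300, 24500 and 52400) and Schwann cell sums (3030, 3120, 2800 and 4680) had the reverse order at 48 hr. Neither had the Wnt4 order at 72 hr. Myoblast, fibroblast, and pericyte and smooth muscle sums had it at neither time. The part of fiber RNA, or of other cells, in the Wnt4 signal was not tested.

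**Figure D2:**
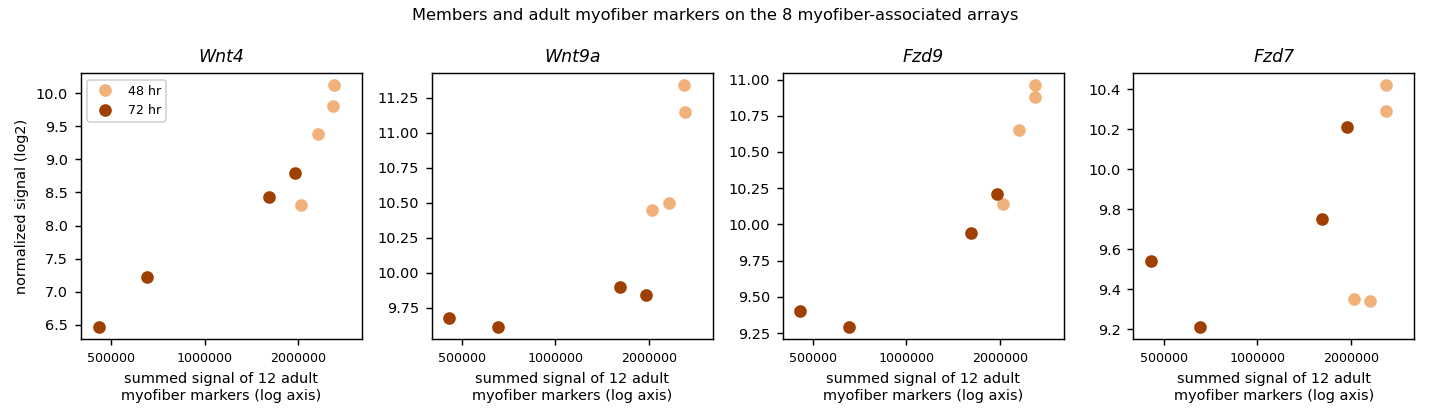
Normalized log2 signal of Wnt4, Wnt9a, Fzd9 and Fzd7 against the summed signal of 12 adult myofiber markers (log axis) on the 8 myofiber-associated arrays, 1 point per array. The order of the arrays at 72 hr was the same for Wnt4 (6.46 to 8.80) and for the marker sum (456000 to 1950000).

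Wnt9a, a ligand of skeletal and joint development, was also higher on the fiber, with opposite values over time in the cultures. Dispersed arrays gave 8.65, 8.75, 8.62 and 8.95 at 48 hr and 9.25, 9.18, 9.41 and 9.66 at 72 hr. Myofiber-associated arrays gave 11.34, 10.50, 11.15 and 10.45 at 48 hr and 9.61, 9.90, 9.68 and 9.84 at 72 hr. The 72-hr dispersed arrays all lay above the 48-hr ones, the 72-hr myofiber-associated arrays all lay below theirs, and at 72 hr the cultures overlapped. Wnt9a rose by 0.64 in dispersed myoblasts (SE 0.12, adjusted p = 0.00596, 4 of 4 arrays), while the value on the fiber was −1.10 (SE 0.21, adjusted p = 0.0116). The CR was 1.74 (SE 0.25, adjusted p = 0.00139), and each culture's 4 arrays went its own way. At 48 hr the level was 2.12 higher in myofiber-associated myoblasts (SE 0.21, 4.34-fold, adjusted p = 9.13e-05, 4 of 4 arrays), and at 72 hr the difference was 0.38 (adjusted p = 0.0317). The rise in dispersed myoblasts was 0.60 to 0.68 with adjusted p of 0.0118 to 0.0196, past the threshold no longer, without any 1 of 48-hr replicates 1, 2 and 3 or 72-hr replicates 1 and 3, and the call was lost with no filter (adjusted p = 0.0162) and in one fit of 16 arrays (0.0368). The value on the fiber was past the threshold without the pooled 48-hr replicate 4 (−1.24, adjusted p = 0.00597), in one fit of 16 arrays (adjusted p = 0.000363) and with the deposited ratios (−1.18, adjusted p = 0.00127). As with Wnt4, the adult myofiber sums were also lower at 72 hr than at 48 hr, and of the 48-hr arrays replicates 1 and 3 were highest in both (Wnt9a 11.34 and 11.15, sums 2590000 and 2600000) and the pooled replicate 4 lowest (10.45 and 2040000). Among the 72-hr arrays they did not keep the same order: Wnt9a stayed within 9.61 (replicate 1) to 9.90 (replicate 2), while the sum ran from 456000 (replicate 3) to 1950000 (replicate 4). The part of fiber RNA in the Wnt9a signal was not tested.

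Wnt5a is the best known ligand of the routes without beta-catenin. In dispersed myoblasts its levels were 9.48, 9.90, 9.77 and 9.58 at 48 hr and 10.03, 10.34, 10.14 and 9.83 at 72 hr. In myofiber-associated myoblasts they were 9.75, 9.49, 9.61 and 9.48 at 48 hr and 8.81, 8.66, 8.68 and 9.02 at 72 hr. The cultures overlapped at 48 hr and were apart at 72 hr, with every myofiber-associated array below every dispersed array. Wnt5a fell by 0.79 on the fiber (SE 0.11, adjusted p = 0.0042, 4 of 4 arrays), the dispersed value was 0.41 (adjusted p = 0.0497), and the CR was 1.20 (SE 0.17, adjusted p = 0.00132). Fiber minus dispersed was −0.10 at 48 hr (95% confidence interval −0.36 to 0.16) and −1.29 at 72 hr (SE 0.13, 2.45-fold, adjusted p = 0.000183, 4 of 4 arrays). The fall on the fiber was −0.73 to −0.82 with adjusted p of 0.0116 to 0.0172 without any 1 of 48-hr replicates 1, 2 and 3 or 72-hr replicates 1, 2 and 3, and its adjusted p was 0.0101 with the slide row in the fit. The CR and the 72-hr difference passed the threshold under every alternative run.

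Wnt7b, a ligand of lung and kidney development, rose with time in both cultures from different starting levels. The dispersed arrays gave 7.49, 7.44, 7.57 and 7.57 at 48 hr and 8.10, 7.90, 8.30 and 8.64 at 72 hr. The myofiber-associated arrays gave 5.46, 6.06, 5.07 and 4.67 at 48 hr and 7.64, 7.29, 7.82 and 7.21 at 72 hr. In each culture all 72-hr arrays lay above all 48-hr arrays, and at each time all dispersed arrays lay above all myofiber-associated arrays. Wnt7b rose by 0.71 in dispersed myoblasts (SE 0.14, adjusted p = 0.00874) and by 2.17 on the fiber (SE 0.29, 4.51-fold, adjusted p = 0.00309), in 4 of 4 arrays each, and the CR of −1.46 was not past the threshold (adjusted p = 0.0157). At 48 hr it was lower on the fiber (−2.20, SE 0.26, 4.6-fold, adjusted p = 0.000221), and at 72 hr the difference was −0.74 (adjusted p = 0.0145). The rise in dispersed myoblasts was 0.69 to 0.76 with adjusted p of 0.0173 to 0.0281 without any 1 of the 4 48-hr replicates or of 72-hr replicates 1 and 3. It was also lost under 75th percentile scaling (0.72, adjusted p = 0.0111), with no filter (adjusted p = 0.0226) and in one fit of 16 arrays (adjusted p = 0.0796). On the fiber the rise was 2.06 to 2.22 with adjusted p of 0.0104 to 0.0136 without any 1 of 48-hr replicates 1 and 3 or 72-hr replicates 1 and 3, and was lost with no filter (adjusted p = 0.0103). Normexp gave 0.55 (dispersed) and 1.13 (fiber) for the rises and −1.11 for the 48-hr difference, all still past the threshold. The CR was past the threshold with the deposited ratios (−1.02, adjusted p = 0.00282) and without myofiber-associated 48-hr replicate 2 (−1.71, adjusted p = 0.00298), the pooled 48-hr replicate 4 (−1.24, adjusted p = 0.00968) or 72-hr replicate 4 (−1.55, adjusted p = 0.00946).

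Wnt10b, known for holding back fat cell formation in muscle precursors, rose in both cultures. Dispersed levels were 4.75, 3.67, 4.26 and 4.21 at 48 hr, where 1 array was well above background, and 5.75, 5.52, 5.68 and 5.73 at 72 hr. Myofiber-associated levels were 4.45, 4.48, 4.65 and 5.14 at 48 hr and 6.81, 6.23, 6.87 and 6.05 at 72 hr. The times did not overlap in either culture, the cultures overlapped at 48 hr, and at 72 hr all myofiber-associated arrays were the higher ones. On the fiber the rise was 1.81 (SE 0.23, 3.5-fold, adjusted p = 0.00275, 4 of 4 arrays), and normexp background correction gave 0.79 (adjusted p = 0.00866). In dispersed myoblasts the test put the rise past the threshold (adjusted p = 0.00158, 4 of 4 arrays), but 3 of the 4 48-hr arrays were not well above background, so its size is not known: the measured log2 difference was 1.45 and normexp gave 0.47 (adjusted p = 0.000847). The CR rests on the same group and was not past the threshold (adjusted p = 0.445). At 72 hr the level was 0.82 higher on the fiber (SE 0.19, adjusted p = 0.00922, 4 of 4 arrays), a difference that was lost in 11 of 17 alternatives. Without any 1 of the 4 dispersed 72-hr arrays or of myofiber-associated replicates 1, 2 and 3 it was 0.69 to 0.90 with adjusted p of 0.0123 to 0.0297, and normexp background correction gave 0.41 (adjusted p = 0.0261), no filter an adjusted p of 0.02, the detection filter 0.0101 and the slide row 0.0165. The rise on the fiber was 1.70 to 1.74 with adjusted p of 0.0105 to 0.0126 without any 1 of 48-hr replicates 1 and 2 or 72-hr replicate 1. The Wnt10b probe lies 22.0 kb from that of Wnt1 on chromosome 15, on opposite strands.

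Wnt6 had low levels, well above background on all 16 arrays. Dispersed arrays gave 4.95, 5.04, 4.78 and 5.09 at 48 hr and 5.37, 5.38, 4.96 and 5.35 at 72 hr, and myofiber-associated arrays gave 4.63, 4.81, 4.56 and 4.54 at 48 hr and 5.95, 6.01, 6.07 and 5.65 at 72 hr. The 72-hr myofiber-associated arrays stood above all others, and the dispersed times overlapped through replicate 3 at 72 hr. Wnt6 rose by 1.29 on the fiber (SE 0.12, 2.44-fold, adjusted p = 0.000964, 4 of 4 arrays), the dispersed value was 0.30 (adjusted p = 0.0837), and the CR was −0.99 (SE 0.16, adjusted p = 0.00283). Between the cultures the difference was −0.33 at 48 hr (adjusted p = 0.0189) and 0.66 at 72 hr (SE 0.13, adjusted p = 0.00449, 4 of 4 arrays). With normexp background correction the CR was −0.43 (adjusted p = 0.0113) and the 72-hr difference 0.30 (adjusted p = 0.0153), both lost, and the rise on the fiber 0.53 (adjusted p = 0.00412). With no filter the 72-hr difference had an adjusted p of 0.0102. The 72-hr difference was 0.61 to 0.70 with adjusted p of 0.0106 to 0.0145 without any 1 of dispersed replicates 1 and 2 or myofiber-associated replicates 1, 2 and 3. The probe lies 19.2 kb from that of Wnt10a on chromosome 1, on the same strand. Wnt10a had mean levels of 7.09 and 7.27 in dispersed and 6.93 and 7.85 in myofiber-associated myoblasts at 48 and 72 hr and was past the threshold in no comparison, but without dispersed 48-hr replicate 1 its change of 0.26 was (adjusted p = 0.00822).

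Wnt11, a ligand of cell movement in the embryo and of kidney branching, was lower on the fiber at 72 hr. Its levels were 9.92, 9.80, 9.56 and 8.99 in dispersed myoblasts at 48 hr and 9.31, 9.56, 9.10 and 8.57 at 72 hr. On the fiber they were 8.66, 9.27, 9.48 and 9.19 at 48 hr and 7.57, 7.94, 7.99 and 8.50 at 72 hr. The cultures overlapped at 48 hr, and at 72 hr the highest myofiber-associated array lay just under the lowest dispersed array. The difference at 72 hr was −1.13 (SE 0.25, 2.19-fold, adjusted p = 0.00737, 4 of 4 arrays). It was −0.99 to −1.15 with adjusted p of 0.0158 to 0.0238 without any 1 of replicates 1, 2 and 3 of either culture at 72 hr, and it was lost with the slide row in the fit (adjusted p = 0.0135) and with no filter (adjusted p = 0.0169). The change with time on the fiber was −1.15 (adjusted p = 0.0133), which passed the threshold without 72-hr replicate 4 (−1.32, adjusted p = 0.00737), in one fit of 16 arrays (adjusted p = 0.00299) and with the deposited ratios (−1.12, adjusted p = 0.00482), and the CR was 0.72 (adjusted p = 0.177).

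The remaining ligands above background were past the threshold in no comparison. Wnt1 was steady at mean levels of 9.71, 9.67, 9.77 and 9.82 (dispersed 48 and 72 hr, then myofiber-associated 48 and 72 hr), but another Wnt1 probe was above background on 1 of 16 arrays. Wnt5b had 10.29, 10.10, 10.75 and 9.65 in the same order, with a change on the fiber of −1.10 (adjusted p = 0.0111) that passed the threshold under 75th percentile scaling (0.00978), with the slide row (0.00875), in one fit of 16 arrays (0.00109) and with the deposited ratios (0.00557). Wnt16 had 5.58, 5.71, 5.78 and 5.88, and another Wnt16 probe was above background on no array. Ligands not well above background on all 4 arrays of any group were Wnt2, Wnt2b, Wnt3, Wnt3a, Wnt7a, Wnt8a, Wnt8b and Wnt9b. Wnt7a, a ligand given to muscle to drive satellite cell expansion, was well above background on 1 array, of the myofiber-associated 72-hr group. Wnt2 was above background on 2 of 4 dispersed 48-hr arrays and on none of the dispersed 72-hr or myofiber-associated arrays, and no size is given.

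Promoters of called members were searched, since Wnt9a, Wnt11 and others moved with culture or time. The RefSeq table (GRCm38.p6) held 13 promoters of 12 of the 17 called members, and Fzd2, Fzd6, Sfrp1, Wnt5a and Wnt7b were not in it. In the 250 bases before the start, the TCF/LEF motif CTTTGAT on either strand was present in 1 of the 13, beside 3.21% of 32851 promoters, and the E-box CAGCTG, the kind that muscle bHLH factors bind, in 2 of 13, beside 13%. The TCF/LEF match lay 51 bases before a start of Wnt11, as ATCAAAG, and the E-boxes 74 bases before the start of Wnt9a and 240 bases before that of Fzd10. A match is a description of letters. The sequences shown are those of the ligands with a match and of Wnt4, which had none and was 85.2% G and C; motifs are in capitals, all else in lower case, read 5′ to 3′ on the + strand, on which all 3 genes lie.
Wnt4 (chr4:137277385-137277634): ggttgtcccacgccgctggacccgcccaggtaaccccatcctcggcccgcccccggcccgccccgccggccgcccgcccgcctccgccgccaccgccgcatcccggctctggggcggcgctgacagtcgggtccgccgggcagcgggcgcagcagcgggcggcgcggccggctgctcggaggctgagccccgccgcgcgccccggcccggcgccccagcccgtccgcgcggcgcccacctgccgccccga
Wnt9a (chr11:59306680-59306929): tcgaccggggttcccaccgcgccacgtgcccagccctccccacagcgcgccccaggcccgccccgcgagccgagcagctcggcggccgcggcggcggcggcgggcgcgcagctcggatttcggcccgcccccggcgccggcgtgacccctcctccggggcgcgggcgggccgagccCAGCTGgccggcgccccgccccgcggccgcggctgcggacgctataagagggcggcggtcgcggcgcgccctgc
Wnt11 (chr7:98834862-98835111): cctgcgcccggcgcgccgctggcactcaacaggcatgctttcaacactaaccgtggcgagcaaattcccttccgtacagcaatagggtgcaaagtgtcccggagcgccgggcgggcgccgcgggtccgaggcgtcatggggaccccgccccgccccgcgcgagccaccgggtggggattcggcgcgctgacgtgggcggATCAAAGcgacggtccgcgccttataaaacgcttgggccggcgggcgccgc

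All 10 Frizzled receptors were well above background in at least 1 group and all were tested. Fzd6, a receptor of planar cell polarity, had opposite changes in the cultures. Its probe (chr15:38869107-38869166, + strand) gave 7.80, 7.98, 8.21 and 8.19 on the dispersed 48-hr arrays and 6.92, 7.23, 7.15 and 6.78 on the dispersed 72-hr arrays. On the myofiber-associated arrays it gave 5.74, 5.95, 6.30 and 5.64 at 48 hr and 7.63, 6.96, 7.16 and 6.85 at 72 hr. All dispersed arrays fell below their 48-hr range, all myofiber-associated arrays rose above theirs, and at 72 hr the cultures overlapped. Fzd6 fell by 1.02 in dispersed myoblasts (SE 0.13, 2.03-fold, adjusted p = 0.000952) and rose by 1.24 on the fiber (SE 0.20, 2.37-fold, adjusted p = 0.00662), in 4 of 4 arrays each. The CR of −2.27 (SE 0.25, adjusted p = 0.000347) was the farthest from 0 among the 26 members in the main fit. It passed the threshold under every alternative run, but its rank did not hold with normexp. That setting gave −1.52 for Fzd6, while the CR of Wnt9a was 1.58 to 1.87 over all alternatives. Between the cultures the difference was −2.14 at 48 hr (SE 0.16, 4.4-fold, adjusted p = 2.15e-05, 4 of 4 arrays) and 0.13 at 72 hr (95% confidence interval −0.29 to 0.54). The rise on the fiber was 1.08 to 1.31 with adjusted p of 0.015 to 0.0262 without any 1 of 48-hr replicates 1 and 2 or 72-hr replicates 1, 2 and 3, 0.76 with normexp background correction (adjusted p = 0.0114), and had an adjusted p of 0.0138 with the slide row in the fit and 0.0174 with no filter. Normexp gave −1.38 for the 48-hr difference of Fzd6 and −1.52 for its CR, both past the threshold.

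**Figure D3:**
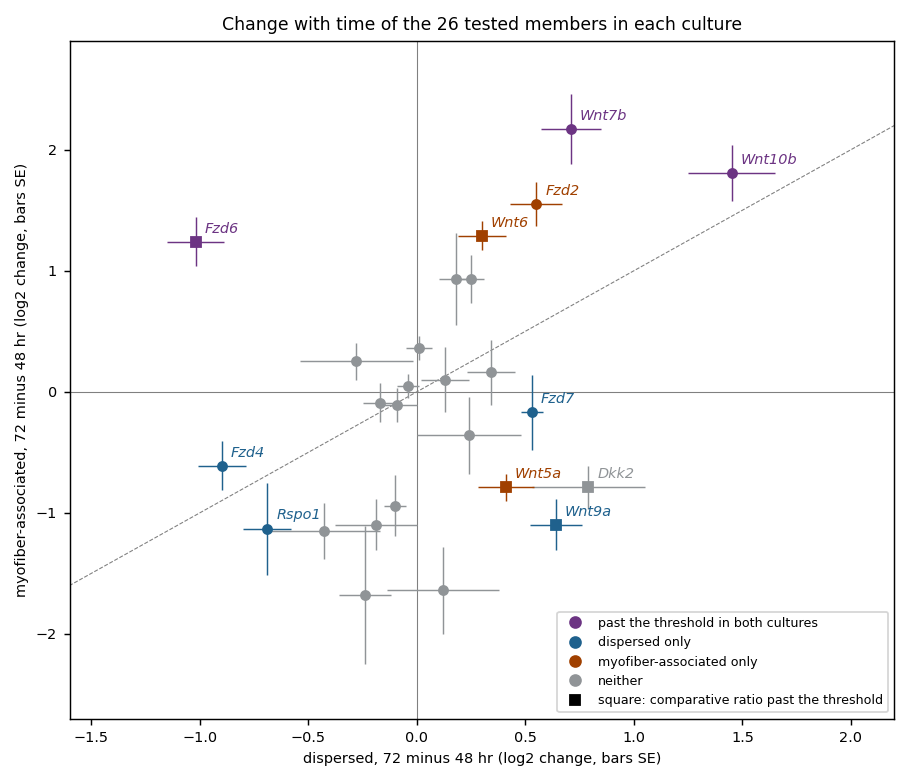
Change of each of the 26 tested members from 48 to 72 hr in dispersed (x axis) and myofiber-associated myoblasts (y axis), as log2 differences of 4 against 4 arrays with bars of 1 SE. Colors show where the change was past the threshold, squares a CR past it, and the dashed line equal change. Fzd6 lies at −1.02 and 1.24, and Wnt9a at 0.64 and −1.10.

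Fzd2, a receptor that binds Wnt5a, was lower on the fiber and rose there. The dispersed arrays gave 11.28, 11.18, 11.03 and 10.75 at 48 hr and 11.71, 11.74, 11.58 and 11.42 at 72 hr, and the myofiber-associated arrays 9.17, 9.27, 9.16 and 9.41 at 48 hr and 11.20, 10.81, 10.88 and 10.32 at 72 hr. At each time every myofiber-associated array lay below every dispersed array, and in each culture every 72-hr array lay above every 48-hr array. Fzd2 rose by 1.55 on the fiber (SE 0.18, 2.92-fold, adjusted p = 0.00183, 4 of 4 arrays), the dispersed value was 0.55 (adjusted p = 0.013), and the CR was −0.99 (adjusted p = 0.0128). The CR passed the threshold without the pooled myofiber-associated 48-hr array (−1.05, adjusted p = 0.00698) or without myofiber-associated 72-hr replicate 4 (−1.15, adjusted p = 0.00148), and also with the slide row in the fit (−0.99, adjusted p = 0.00825) and with the deposited ratios (−1.05, adjusted p = 0.00219). The dispersed change of Fzd2 passed with the slide row (0.55, adjusted p = 0.00204), 75th percentile scaling (0.60, 0.00947), the mean of all probes (0.79, 0.0056) and the deposited ratios (0.51, 0.00283). The cultures differed by −1.81 at 48 hr (SE 0.12, 3.5-fold, adjusted p = 1.42e-05) and by −0.82 at 72 hr (SE 0.18, 1.76-fold, adjusted p = 0.00691). The 72-hr difference was −0.77 to −0.88 with adjusted p of 0.0106 to 0.0233 without any 1 of the 4 dispersed arrays or of myofiber-associated replicates 2 and 3, the mean of all probes gave −0.80 (adjusted p = 0.0131), and no filter an adjusted p of 0.0155. A second Fzd2 probe had the same directions, with 1.02 over time in dispersed myoblasts and −0.78 between the cultures at 72 hr. On the fiber at 48 hr it was above background on 3 of 4 arrays, so no size is given for the comparisons with that group.

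Fzd4, the receptor that also binds Norrin in blood vessels of the retina, fell in dispersed myoblasts. Its levels there were 11.78, 11.85, 11.95 and 12.15 at 48 hr and 10.81, 10.94, 11.20 and 11.17 at 72 hr. On the fiber they were 11.59, 10.67, 11.05 and 10.97 at 48 hr and 10.61, 10.65, 10.15 and 10.45 at 72 hr. The times did not overlap in either culture, nor did the cultures at either time, and replicate 1 was the highest of the myofiber-associated 48-hr arrays. Fzd4 fell by 0.90 in dispersed myoblasts (SE 0.11, 1.87-fold, adjusted p = 0.000956, 4 of 4 arrays), and the value on the fiber was −0.61 (adjusted p = 0.0609), with a CR of −0.29 (adjusted p = 0.4). At 48 hr it was lower on the fiber (−0.86, SE 0.19, adjusted p = 0.00437, 4 of 4 arrays), and at 72 hr the difference was −0.57 (adjusted p = 0.011). The 48-hr difference was −0.79 to −0.89 with adjusted p of 0.0115 to 0.0148 without any 1 of dispersed replicates 2, 3 and 4 or myofiber-associated replicate 3, and was lost with no filter (adjusted p = 0.0109). The 72-hr difference passed the threshold with normexp (−0.57, adjusted p = 0.00695) and 75th percentile scaling (−0.63, adjusted p = 0.00543). Most endothelial markers moved the same way as Fzd4 over time and between the cultures, but Kdr had 12.39 and 12.47 on the fiber at 48 and 72 hr. Among the myofiber-associated 48-hr arrays the orders differed. Fzd4 was highest on replicate 1 (11.59, endothelial sum 34500), and the sum was highest on the pooled replicate 4 (52400, Fzd4 10.97). The part of endothelial markers in the Fzd4 level was not tested.

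Fzd9, a receptor studied in bone and at the nerve-muscle synapse, was higher on the fiber at 48 hr. Dispersed levels were 8.99 to 9.09 at 48 hr and 8.85, 8.88, 8.99 and 8.99 at 72 hr, and levels on the fiber were 10.96, 10.65, 10.88 and 10.14 at 48 hr and 9.29, 9.94, 9.40 and 10.21 at 72 hr. Every myofiber-associated array lay above every dispersed array of its time, and at 72 hr replicates 2 and 4 were the high ones, as they were for Wnt4 and for the adult myofiber markers. The difference was 1.62 at 48 hr (SE 0.17, 3.08-fold, adjusted p = 0.000116, 4 of 4 arrays) and 0.78 at 72 hr (adjusted p = 0.0134), the latter past the threshold without myofiber-associated replicate 1 (0.92, adjusted p = 0.00723) and in one fit of 16 arrays (adjusted p = 0.00447). The change on the fiber was −0.94 (adjusted p = 0.0332, but 0.00163 in one fit of 16 arrays) and the CR 0.84 (adjusted p = 0.0503), the latter past the threshold without the pooled 48-hr array (1.02, adjusted p = 0.00848). The part of fiber RNA in the Fzd9 signal was not tested.

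Fzd7, the receptor through which Wnt7a acts on satellite cells, rose in dispersed myoblasts. Its levels there were 9.07, 9.17, 9.10 and 9.09 at 48 hr and 9.53, 9.69, 9.68 and 9.65 at 72 hr, a tight rise of 0.53 with no overlap (SE 0.05, 1.44-fold, adjusted p = 0.000261, 4 of 4 arrays). On the fiber they were 10.29, 9.34, 10.42 and 9.35 at 48 hr and 9.21, 9.75, 9.54 and 10.21 at 72 hr. Replicates 1 and 3 were about 1 unit above replicates 2 and 4 at 48 hr, the times overlapped, and the value was −0.17 (95% confidence interval −0.89 to 0.55), with a CR of 0.70 (adjusted p = 0.158). Replicates 1 and 3 also had the highest adult myofiber sums at 48 hr (2590000 and 2600000). At 72 hr replicates 2 and 4 were highest in both (sums 1610000 and 1950000). The other arrays of each time did not keep the same order. The part of fiber RNA in the Fzd7 signal was not tested. In one fit of all 16 arrays, which shares the wider spread on the fiber, the rise in dispersed myoblasts had an adjusted p of 0.2. A second Fzd7 probe gave 0.54 over time in dispersed myoblasts and 0.86 on the fiber, and between the cultures −0.95 and −0.63 where the first gave 0.74 and 0.04. The probes thus differ in direction on the fiber and between the cultures, and no direction is given for Fzd7 there.

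Fzd10 was lower on the fiber at both times. Dispersed arrays gave 7.75, 8.02, 7.90 and 8.18 at 48 hr and 8.12, 8.26, 8.32 and 8.51 at 72 hr, and myofiber-associated arrays gave 6.54, 7.47, 6.76 and 7.02 at 48 hr and 6.79, 7.13, 7.78 and 6.72 at 72 hr. The cultures did not overlap at either time, and the times overlapped within each culture. The difference was −1.01 at 48 hr (SE 0.20, 2.02-fold, adjusted p = 0.00251) and −1.20 at 72 hr (SE 0.23, 2.29-fold, adjusted p = 0.00375), in 4 of 4 arrays each. The 72-hr difference was −1.09 to −1.21 with adjusted p of 0.0108 to 0.0129 without any 1 of dispersed replicates 2, 3 and 4 or myofiber-associated replicates 1 and 2.

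The other 4 receptors passed the threshold in no comparison. Fzd1 had mean levels of 11.43 and 11.44 in dispersed and 11.41 and 11.76 in myofiber-associated myoblasts at 48 and 72 hr. Fzd3, a receptor of nerve growth and planar cell polarity, had 9.01, 9.26, 8.71 and 9.64 in that order, with a change on the fiber of 0.93 (adjusted p = 0.0175). Fzd5 had 6.02, 5.94, 6.09 and 5.98, and its probes differed on the fiber, with changes of −0.11 and 0.77. Fzd8 had 7.57, 7.41, 7.07 and 6.97. In one fit of 16 arrays Fzd1 passed the threshold on the fiber (adjusted p = 0.00199) and at 72 hr (0.00298). The CR of Fzd1 passed with the deposited ratios (0.00892). Fzd3 passed on the fiber in one fit of 16 arrays and with the deposited ratios, and its CR with the latter. Fzd8 passed at 48 hr in one fit of 16 arrays (0.00376).

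**Figure D4:**
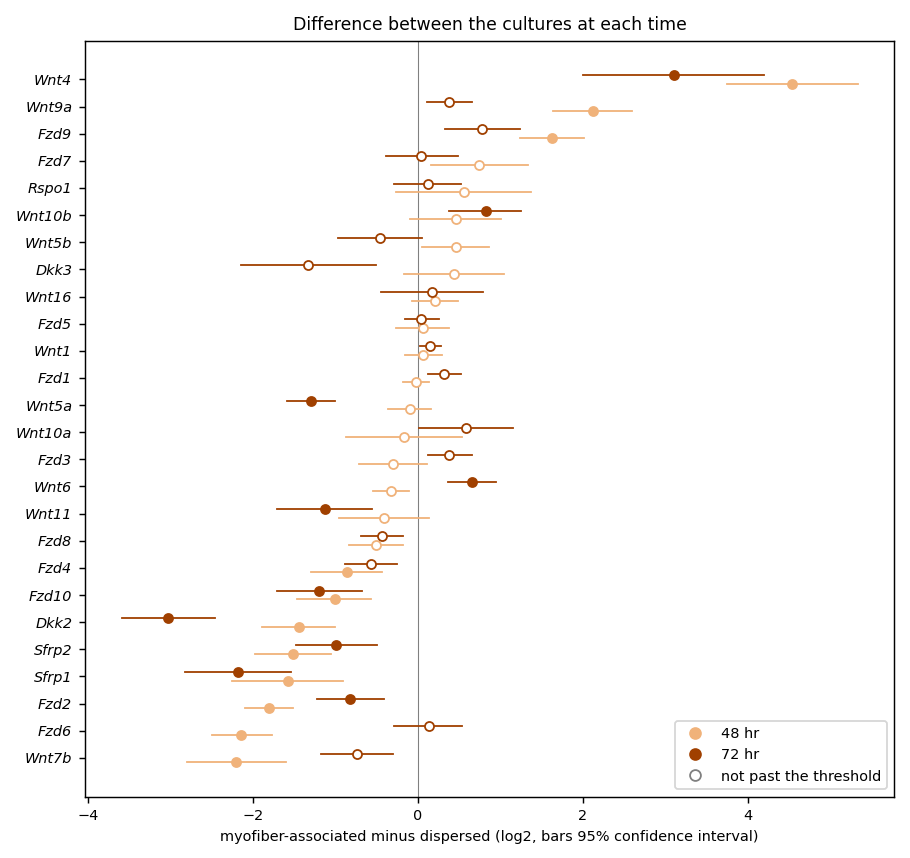
Difference between the cultures (myofiber-associated minus dispersed, log2, 4 against 4 arrays) of the 26 tested members at 48 and 72 hr, with 95% confidence intervals as bars and open symbols for differences not past the threshold. Wnt4 lies at 4.54 and 3.10, and Dkk2 at −1.44 and −3.03.

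Dkk2, Sfrp1 and Sfrp2 were lower on the fiber at both times. Dkk2, a Dickkopf that binds the Lrp co-receptors, gave 9.11, 9.41, 8.98 and 8.49 on the dispersed 48-hr arrays and 10.21, 9.97, 9.82 and 9.16 at 72 hr. The myofiber-associated arrays gave 7.85, 7.46, 7.51 and 7.39 at 48 hr and 6.49, 7.23, 6.61 and 6.73 at 72 hr. Every myofiber-associated array lay below every dispersed array, the dispersed times overlapped, and the gap between the cultures was wider at 72 hr. The difference was −1.44 at 48 hr (SE 0.19, 2.72-fold, adjusted p = 0.000416) and −3.03 at 72 hr (SE 0.24, 8.14-fold, adjusted p = 7.79e-05), in 4 of 4 arrays each and past the threshold under every alternative run. The change with time was 0.79 off the fiber (adjusted p = 0.0568) and −0.79 on it (adjusted p = 0.0192), and the CR was 1.58 (SE 0.33, adjusted p = 0.00881). The CR was lost in 14 of 25 alternatives. Without any 1 of dispersed 48-hr replicates 1, 3 and 4, dispersed 72-hr replicates 1, 2 and 3, myofiber-associated 48-hr replicates 1, 2 and 3 or myofiber-associated 72-hr replicates 1 and 3 it was 1.41 to 1.62 with adjusted p of 0.0123 to 0.0229, and normexp gave 1.27 (adjusted p = 0.0127), no filter an adjusted p of 0.0183 and the detection filter 0.0103. The value on the fiber was past the threshold without 72-hr replicate 2 (−0.94, adjusted p = 0.00922) and with the deposited ratios (−0.70, adjusted p = 0.00907).

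Sfrp1 and Sfrp2 bind Wnts outside the cell. Sfrp1 gave 6.20, 6.03, 5.76 and 6.21 on the dispersed 48-hr arrays, 6.59, 6.79, 6.14 and 5.63 on the dispersed 72-hr arrays, 5.03, 3.63, 4.30 and 4.91 on the myofiber-associated 48-hr arrays and 4.40, 4.45, 3.89 and 3.70 at 72 hr. In each myofiber-associated group 2 of 4 arrays were well above background, and none reached the lowest dispersed array of its time. The measured difference was −1.58 at 48 hr (SE 0.29, adjusted p = 0.00211) and −2.18 at 72 hr (SE 0.28, adjusted p = 0.000628), in 4 of 4 arrays each, and with arrays at background on the fiber no fold is given. Normexp background correction made them about 3 times smaller, −0.49 (adjusted p = 0.00161) and −0.73 (adjusted p = 0.00292). Sfrp2 gave 8.78, 8.96, 8.28 and 8.28 on the dispersed 48-hr arrays, 8.86, 8.49, 8.08 and 7.77 on the dispersed 72-hr arrays, 6.84, 7.34, 7.30 and 6.77 on the myofiber-associated 48-hr arrays and 7.38, 7.29, 7.35 and 7.22 at 72 hr. The cultures did not overlap at either time, and the 72-hr myofiber-associated arrays were the tightest group. Sfrp2 differed by −1.51 at 48 hr (SE 0.20, 2.85-fold, adjusted p = 0.000418) and by −0.99 at 72 hr (SE 0.21, 1.99-fold, adjusted p = 0.00689), in 4 of 4 arrays each. The latter was −0.93 to −1.06 with adjusted p of 0.0137 to 0.0231 without any 1 of dispersed replicates 2 and 3 or of the 4 myofiber-associated arrays, and −0.76 with normexp background correction (adjusted p = 0.0136), and had an adjusted p of 0.0157 with no filter. Of 12 fibroblast markers, 9 were lower and 1 higher on the fiber at 72 hr (median −1.53). Of all genes 15.6% were lower and 11.5% higher there (median −0.02). At 48 hr 4 of 12 were lower and none higher (median −0.74), beside 27% and 16.1% of all genes (median −0.12). By sign alone 8 were lower and 4 higher at 48 hr. The part of fibroblast markers in the Dkk2, Sfrp1 and Sfrp2 levels was not tested. Their summed signal (brightest Dcn, none of them at background throughout) was 262000, 278000, 234000 and 203000 on the dispersed 48-hr arrays, 263000, 253000, 208000 and 162000 at 72 hr, 158000, 132000, 158000 and 285000 on the myofiber-associated 48-hr arrays and 64200, 81900, 96800 and 97700 at 72 hr.

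Rspo1, an activator of Wnt signaling through the Lgr receptors, fell in dispersed myoblasts. Its levels there were 7.05, 7.27, 7.32 and 6.89 at 48 hr and 6.31, 6.65, 6.49 and 6.33 at 72 hr. On the fiber they were 7.23, 7.54, 7.11 and 8.87 at 48 hr and 6.35, 6.84, 6.89 and 6.17 at 72 hr. The times did not overlap in either culture, and the pooled replicate 4 stood above the other myofiber-associated 48-hr arrays. Rspo1 fell by 0.69 in dispersed myoblasts (SE 0.11, 1.61-fold, adjusted p = 0.00382, 4 of 4 arrays), the value on the fiber was −1.13 (SE 0.38, adjusted p = 0.0636), and the CR was 0.44 (adjusted p = 0.483). Without the pooled 48-hr replicate 4 the value on the fiber was −0.73 (adjusted p = 0.0318) and the CR 0.05 (adjusted p = 0.9). The fall in dispersed myoblasts was −0.62 to −0.70 with adjusted p of 0.0102 to 0.0137 without any 1 of 48-hr replicates 2 and 3 or 72-hr replicates 1, 3 and 4. It was also lost with no filter (adjusted p = 0.011) and in one fit of 16 arrays, which gave an adjusted p of 0.183, and normexp gave −0.45 (adjusted p = 0.00192). The change of Rspo1 on the fiber passed the threshold in that one fit (adjusted p = 0.00809) and with the deposited ratios (−1.21, adjusted p = 0.00353). The pooled array that was highest for Rspo1 was also the highest of its group in the fibroblast (285000), endothelial (52400, others 24500 to 37300), pericyte and smooth muscle (13800, others 10900 to 11200) and Schwann cell sums (4680, others 2800 to 3120), and the part of these in its level was not tested.

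The other secreted regulators were low or passed no threshold. Dkk3, a divergent Dickkopf, had a mean level of 6.88 in dispersed myoblasts at 48 hr and a change there of 0.12, and on the fiber 7.32 at 48 hr and 5.68 at 72 hr, a change of −1.64 (adjusted p = 0.018, and −0.93 with normexp). That change passed the threshold in one fit of 16 arrays and with the deposited ratios. The CR of Dkk3 was 1.76 (adjusted p = 0.0259) and passed with the deposited ratios. At 72 hr fiber minus dispersed was −1.33 for Dkk3 (adjusted p = 0.017, and 0.00506 in one fit of 16 arrays), without overlap. Sfrp4 had 4.75 and 3.72 (dispersed) and 6.22 and 5.20 (fiber) at 48 and 72 hr, was well above background on 3, 2, 4 and 3 arrays, and its median was under the floor of 5. With no floor the 48-hr difference of Sfrp4 was 1.47 with an adjusted p of 0.000832, in 4 of 4 arrays, opposite in sign to those of Sfrp1 and Sfrp2, and normexp gave 0.61 (adjusted p = 0.000579). At 72 hr the difference of Sfrp4 was 1.47 with no floor (adjusted p = 0.0473) and 0.42 with normexp (adjusted p = 0.0537), neither past the threshold, and 1.74 with 75th percentile scaling (adjusted p = 0.00814), which passed it. Sfrp5 was well above background on all 16 arrays at means of 5.14, 4.85, 4.50 and 4.83 in that order and was not tested for the same reason. Dkk1, Dkk4, Rspo2, Rspo3 and Rspo4 were not well above background on all 4 arrays of any group. Rspo3 was above background on 1 myofiber-associated 48-hr array, on none at 72 hr, and on 2 dispersed arrays at each time, and no size is given.

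Other genes of the pathway were read from lists of co-receptors, secretion, transduction, planar cell polarity and target genes. The shares of all genes to read their counts beside are those above: 7.38% rose and 6.32% fell in dispersed myoblasts, 3.74% and 1.74% did on the fiber, and the CR was positive for 1.09% and negative for 2.36%. Of 11 co-receptor and turnover genes tested, 2 rose in dispersed myoblasts (Kremen1 0.57, and Lgr5, with no size given because 1 of 4 arrays was above background at 48 hr) and 3 in myofiber-associated myoblasts, and none fell. On the fiber the R-spondin receptor Lgr6 rose by 2.04 and Kremen1, a Dickkopf receptor that takes Lrp6 off the surface, by 1.55. The third, the R-spondin receptor Lgr5, was above background on none of the myofiber-associated 48-hr arrays and on all 4 at 72 hr, at least 5.95-fold higher, taken against the lowest signal called well above background on each array. The CR was past the threshold for 4 of the 11, all negative (Lgr6 −1.80, the Fzd4 partner Tspan12 −1.40, Kremen1 −0.98, and Lgr5, for which no size is given because it rests on the group at background). Between the cultures 2 were higher and 3 lower on the fiber at 48 hr, beside 16.1% and 27% of all genes (Lgr6 1.18, the Wnt5a receptor Ror2 −0.96, Tspan12 −0.87, and Lgr5 with 1 of 8 arrays above background and no size given), and at 72 hr 2 were higher and 1 lower, beside 11.5% and 15.6% (Lgr6 2.98, Ror2 −1.30, Kremen1 1.27). The list's medians were 0.08, 0.41, −0.29, −0.20 and 0.08 in these comparisons, beside 0.02, 0.06, −0.07, −0.12 and −0.02 over all genes.

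Of 6 secretion genes and other secreted regulators tested, Wls, the carrier that takes Wnts to the cell surface, rose in dispersed (0.51) and myofiber-associated myoblasts (1.12), and none fell. None had a CR past the threshold. At 48 hr 1 was higher and 3 lower on the fiber, beside 16.1% and 27% of all genes (Tinagl1 −3.72, the membrane inhibitor Apcdd1 −1.07, Porcn, which adds the lipid to Wnts, 1.03, and Wls −0.39), and at 72 hr 1 was higher and 2 lower, beside 11.5% and 15.6% (Tinagl1 −3.30, Apcdd1 −1.38, Porcn 0.76). Medians were 0.10, 0.14, −0.24, −0.20 and 0.23.

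Of 23 transduction genes tested, 1 rose in dispersed myoblasts (Tcf7l1 0.37) and 4 on the fiber, with none that fell. Those on the fiber were the TCF/LEF factors Tcf7l1 (1.36), Tcf7 (1.25) and Lef1 (1.03), and Ctnnbip1 (0.83), which keeps beta-catenin off them. The CR was negative and past the threshold for 4 (Tcf7 −1.20, Tcf7l1 −0.98, the beta-catenin gene Ctnnb1 −0.81, Ctnnbip1 −0.66) and positive for none. At 48 hr 1 was higher and 7 lower on the fiber, beside 16.1% and 27% of all genes (Lef1 −1.28, the feedback inhibitor Nkd1 −1.18, Ctnnb1 −1.01, Dvl1 0.63), and at 72 hr 3 were higher and 2 lower, beside 11.5% and 15.6% (Tcf7 1.17, Nkd1 −1.16, Lef1 −0.68, Dvl3 0.40). Medians were 0.10, 0.16, −0.10, −0.11 and 0.01.

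Of 13 planar cell polarity genes tested, 3 rose in dispersed myoblasts (Daam1 0.36, Prickle1 0.33, and Celsr3, with no size given because 2 of 4 arrays were above background at 48 hr) and none fell, and limma passed none on the fiber or for the CR. At 48 hr 2 were higher and 6 lower on the fiber, beside 16.1% and 27% of all genes (Daam2 −1.64, Celsr1 −1.55, Vangl1 −0.95, and Celsr3 higher with no size given), and at 72 hr 1 was higher and 2 lower, beside 11.5% and 15.6% (Celsr3 1.61, Celsr1 −0.70, Vangl1 −0.63). Medians were −0.06, 0.13, −0.11, −0.18 and −0.29.

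Of 14 beta-catenin target genes tested, some of which stand in the lists above too, 3 rose in dispersed myoblasts and 1 fell (Ccnd1 0.37, Cd44 0.35, Lgr5 with no size given, and Bmp4 −1.54). On the fiber 4 rose and 1 fell (Tcf7 1.25, Lbh 1.13, Lef1 1.03, Lgr5 by the bound above, and Jag1, which fell by 0.86). The CR was negative and past the threshold for 3 (Tcf7 −1.20, Lbh −0.90, and Lgr5 with no size given). Between the cultures none was higher and 9 lower on the fiber at 48 hr, beside 16.1% and 27% of all genes (Bmp4 4.01-fold lower, Lbh −1.49, Lef1 −1.28, and Lgr5 with no size given), with a median of −0.95 beside −0.12 over all genes. At 72 hr 1 was higher and 8 lower, beside 11.5% and 15.6% (Bmp4 −1.96, Jag1 −1.63, Apcdd1 −1.38, and Fst 2.83-fold lower), with a median of −0.61 beside −0.02. Markers of several other cells were lower there too, with medians at 48 and 72 hr of −2.60 and −3.06 (endothelial), −2.04 and −0.97 (pericyte and smooth muscle) and −0.74 and −1.53 (fibroblast). Leukocyte (−2.04 and −1.10) and Schwann cell medians (−2.41 and −1.95) were also lower. Medians of tenocyte (1.62 and 0.48) and adult myofiber markers (5.90 and 5.52) were higher. The part of any of these cells in the levels of target genes was not tested. Over time the medians were 0.14 off the fiber and 0.07 on it, and that of the CR was −0.07.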

How the data were processed

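What the authors deposited is a fluorescence intensity per spot that the scanner software (Feature Extraction 11.0.1.1) had background-corrected, per the file headers. The series matrix was deposited by them as a log2 ratio, 72-hr array over the averaged 48-hr arrays of the same culture, after loess and quantile steps by the paper's account.

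Here the scanner's processed signal was put on the log2 scale without outlier spots. A loess fit (span 0.3, 4 iterations) against the averaged 48-hr arrays of the same culture was removed from every array before quantile normalization of all 16. Identical probes were averaged, and the brightest probe stood for a gene. Gene names follow the myofiber-associated slide's files, and 1831 of 55681 probes have another name in the dispersed slide's files, none of them a member's. Genes with a median under 5 were left out, and 20317 were tested with limma 3.58.1 in R 4.3.3, with files read by the package data.table (1.17.8). Tests were two-sided, p was adjusted by Benjamini-Hochberg across the tested genes, and the threshold was 0.01. Exact permutation tests of single members were two-sided as well. The code was tested on simulated data.

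The members and lists were chosen with earlier results of these data known. A member is described on all arrays if it passed the threshold in a comparison and had a group with 4 arrays well above background, by group means if only the latter held, and otherwise by name. Genes of the lists (co-receptors and turnover, secretion, transduction, planar cell polarity, beta-catenin targets) are named if past the threshold, up to 4 per comparison. Marker lists (myoblast, muscle differentiation, endothelial, fibroblast, pericyte, leukocyte, Schwann cell, tenocyte, adult myofiber) are given as counts, medians and sums of linear signal. The alternatives tried were background correction by normexp (offset 50), 75th percentile scaling, quantile normalization alone, no filter, a filter on detection, the mean of all probes, the slide row as a term, one fit of 16 arrays, a threshold of 0.05, the deposited ratios, and each array left out. Pathway enrichment, the samr test of the study and its protein experiments were left out.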

Additional observations from a re-analysis of the deposited data

Results flagged for a closer look

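Single arrays stood far from their group in 4 of 105 sets of 4 arrays looked at, and chance does this in about 1 group in 20. Fzd5 was 6.50 on the pooled myofiber-associated 48-hr replicate 4, with the others at 5.91 to 5.99. Wnt16 was 5.31 on dispersed 48-hr replicate 2, with the others at 5.65 to 5.68. Wnt5b was 9.07 on myofiber-associated 72-hr replicate 1, with the others at 9.78 to 9.87. Wnt6 was 4.96 on dispersed 72-hr replicate 3, with the others at 5.35 to 5.38.

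The change with time differed between the cultures for 5 of 26 members (19.2%) by the test of the difference itself, beside 3.45% of all genes. The CR was 1.58 for Dkk2, −2.27 for Fzd6, 1.20 for Wnt5a, −0.99 for Wnt6 and 1.74 for Wnt9a. That of Dkk2 was lost in 14 of 25 alternatives, and that of Wnt6 with normexp. For Fzd6 the changes within the cultures were both past the threshold and opposite in sign (−1.02 dispersed, 1.24 myofiber-associated).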

How the results depend on the processing

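No direction of a called result reversed under any alternative run. Of the 39 calls of single members, 22 held under every alternative and 17 were lost under at least 1. Of 91 results not past the threshold, 33 were gained somewhere, with the threshold of 0.05 counted as an alternative. The changes of Fzd3 and Wnt5a in dispersed myoblasts, the 48-hr differences of Fzd7 and Wnt6 and the 72-hr difference of Fzd8 were gained only at 0.05. Calls that held throughout were Fzd4, Fzd6 and Wnt10b in dispersed myoblasts, Fzd2 and Wnt6 on the fiber, the CRs of Fzd6, Wnt5a and Wnt9a, every 48-hr difference but that of Fzd4, and the 72-hr differences of Dkk2, Sfrp1, Wnt4 and Wnt5a, except that Wnt4 fell under the floor with the mean of all probes and was then not tested. Normexp made several of them smaller. Counts of members past the threshold moved as follows. In dispersed myoblasts 7 became 4 with no filter and 3 in one fit of 16 arrays, and 4 to 7 without 1 array (4 without 48-hr replicate 2 or 3 or 72-hr replicate 1 or 3). On the fiber 6 became 15 in one fit of 16 arrays, 14 at a threshold of 0.05 and 13 with the deposited ratios, and 2 to 9 without 1 array (2 without 48-hr replicate 1 or 72-hr replicate 1, 3 without 48-hr replicate 2 or 72-hr replicate 3). For the CR 5 became 3 with normexp, 9 at a threshold of 0.05 and 10 with the deposited ratios, and 4 to 10 without 1 array (10 without the pooled array). At 48 hr 11 were 10 to 14 without 1 array. At 72 hr 10 became 5 with no filter and 18 at a threshold of 0.05, and 4 to 10 without 1 array (6, 4 and 5 without dispersed replicates 1, 2 and 3, and 6, 4 and 6 without myofiber-associated replicates 1, 2 and 3). Counts of all genes, higher and lower, moved too. They are not given here at a threshold of 0.05 or without 1 array. The member counts under those settings thus have no share of all genes beside them and are not a result on Wnt genes. In dispersed myoblasts 1499 and 1285 became 1069 and 983 with no filter and 394 and 605 in one fit. On the fiber 759 and 354 became 3387 and 2393 in one fit and 2203 and 1584 with the deposited ratios. For the CR 221 and 480 became 206 and 486 with normexp and 1645 and 2178 with the deposited ratios. At 72 hr 2344 and 3169 became 1895 and 2870 with no filter. With no filter more genes were tested (34836), and normexp with its offset also let all through; other causes were not tested. Without the pooled array Dkk3 and Fzd3 passed the threshold on the fiber (−1.90 and 1.11, adjusted p = 0.00732 and 0.0041), for the CR (2.02 and −0.85, 0.00629 and 0.00383) and at 48 hr (0.69 and −0.47, 0.00733 and 0.00646), and Fzd8 did at 48 hr (−0.59, 0.00637; −0.37, 0.00909 without replicate 3). At 72 hr Fzd3 passed without myofiber-associated replicate 4 (0.47, 0.00977), Wnt7b without replicate 3 (−0.85, 0.00936) and Wnt9a without dispersed replicate 4 (0.48, 0.00923). Fzd7 at 48 hr was −0.10 with the mean of all probes and 0.74 with its brightest probe, neither past the threshold. No scaling moved the median of all genes by over 0.1. The changes here and in the deposited table correlated across 20317 genes, which are not independent replicates, with r = 0.988 off the fiber and 0.985 on it, and the medians of the table's columns were 0.089, 0.053, 0.108 and 0.007 for the myofiber-associated and 0.036, 0.017, 0.010 and −0.005 for the dispersed 72-hr arrays. That table cannot give the differences between the cultures. No paired analysis was possible because the groups compared share fewer than 2 numbers in the labels' titles. Signal over background limits what can be read of Wnt10b, Sfrp1, Wnt4 in dispersed myoblasts and 13 of the 15 untested members. Sfrp4 and Sfrp5 were untested because their medians were under the floor of 5, though Sfrp5 was well above background on all 16 arrays.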

Other observations

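Beyond the members, a few pathway genes too dim for the test had large values. They were chosen after their values were seen. Axin2, a negative feedback target of beta-catenin signaling, had mean levels of 5.27 and 3.96 in dispersed myoblasts at 48 and 72 hr, with 4 and 2 arrays above background. In myofiber-associated myoblasts it had 5.60 on 4 arrays above background at 48 hr and 3.22 on none at 72 hr, at least 3.68-fold lower at 72 hr. Sp5, a target gene too, was above background on none of the dispersed 48-hr arrays and on all 4 at 72 hr (6.49), at least 4.77-fold higher. Frzb, a secreted Frizzled-related protein under another name, was at 5.44 on the dispersed 72-hr arrays and above background on no myofiber-associated 72-hr array, at least 3.38-fold lower there. None of these folds was tested. Among the dim members, Rspo2 gave 8.01 on dispersed 48-hr replicate 1 and 2.07 to 2.60 on the other arrays of that group, and Wnt8b gave 6.74 on dispersed 72-hr replicate 2 and 2.52 to 4.64 on the others.

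Wnt3 and Wnt9b probes lie 90.2 kb apart and Wnt3a and Wnt9a probes 85.4 kb apart on chromosome 11, each pair on opposite strands, and of these 4 Wnt9a alone was well above background throughout a group.

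Marker lists are given as higher and lower counts in the order dispersed over time, myofiber-associated over time, CR, and fiber against dispersed at 48 and at 72 hr. Over all genes the shares in that order were 7.38% and 6.32%, 3.74% and 1.74%, 1.09% and 2.36%, 16.1% and 27%, and 11.5% and 15.6%. Myoblast markers (10 tested) had 4 higher and 0 lower, 3 and 0, 0 and 2, 1 and 4, and 2 and 0. Muscle differentiation genes (12) had 5 and 3, 2 and 0, 2 and 0, 8 and 1, and 7 and 1. Over time adult myofiber markers (12) had 0 and 5 in dispersed and 0 and 1 in myofiber-associated myoblasts, and 0 and 0 for the CR. Endothelial markers (14) had 0 and 13, 0 and 9, and 1 and 0 in the same 3 comparisons, and fibroblast markers (12) had 0 and 1, 0 and 4, and 1 and 1. Pericyte and smooth muscle markers (9) had 1 and 3, 0 and 1, 0 and 0, 0 and 5, and 0 and 4. Leukocyte markers (9) had 1 and 2, 1 and 0, 0 and 1, 1 and 5, and 1 and 3. Schwann cell markers (7) had 0 and 5, 0 and 0, 0 and 1, 0 and 6, and 0 and 4. Tenocyte markers (4) had 1 and 1, 1 and 1, 0 and 0, 3 and 1, and 1 and 0.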
